A study of Homo sapiens with 12 samples.

Results

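The genes described here are human receptor tyrosine kinases outside the ERBB family, 50 genes of the 20531 that each library lists. They were chosen by gene symbol from general knowledge of the family and by no rule on their values, but with earlier results of these data known. They cover the discoidin domain, insulin and IGF, FGF, MET, TAM, PDGF, VEGF, neurotrophin, RET, ALK, Wnt-binding, TIE and ephrin receptors, together with ROS1, STYK1, LMTK2 and AATK. At least 10 counts in at least 1 of the 12 libraries were needed for a test, and 30 of the 50 genes met this minimum among 14012 genes in all.

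Receptor tyrosine kinases span the plasma membrane, bind a ligand outside the cell and phosphorylate tyrosines inside it. Docking proteins such as the IRS, GAB and FRS families then pass the signal to the RAS-ERK and PI3K-AKT pathways, and CBL ubiquitin ligases and phosphatases end it. In breast cancer cells driven by HER2, several of these receptors are studied as alternative routes to the same pathways when HER2 is inhibited.

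RNA was sequenced from SKBR-3, a breast cancer cell line with HER2 amplification and no estrogen receptor, in 4 groups of 3 libraries. Cells received a non-targeting (NT) siRNA or siRNA to FOXA1, a pioneer transcription factor of luminal cells, for 48 h by the labels, and DMSO or 300 nM lapatinib, an inhibitor of the EGFR and HER2 kinases, for 24 h. Each siRNA was thus combined with each drug condition. All are 1 cell line, and no source says that the replicates were separate cultures, so p-values measure the spread between these libraries, which may be technical.

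The libraries held between 25749578 and 32271850 counts. Within every group replicate 2 stood apart, with a chi-square per degree of freedom of 12.8 to 18.7 against the other replicates and 3.72 to 5.98 between replicates 1 and 3, so the numbers of receptors called are also given without the replicate 2 libraries. FOXA1, the siRNA target, was at 8446, 8308 and 8767 normalized counts with NT siRNA and DMSO and at 1160.1, 1362 and 1564 after FOXA1 siRNA in DMSO. Under lapatinib it was at 12672, 12168 and 13177 with NT siRNA and at 1642, 1888 and 2384 with FOXA1 siRNA, without overlap between the siRNAs. The epithelial keratins KRT8, KRT18 and KRT19 were between 2062 and 5329 TPM and ERBB2 between 2718 and 6105 TPM, whereas CDH1 did not exceed 0.25 TPM. Of the markers of other cell types, LUM was at 0, and COL1A2, DCN, PECAM1, PTPRC, CD14 and SOX10 did not exceed 0.83 TPM, VWF did not exceed 0.64 TPM, while CDH5, CD68, TUBB3 and COL1A1 were detected at 2.74 to 42.5 TPM.

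DDR1 dominated the receptors of this family in SKBR-3. Levels between genes are compared in TPM, which corrects for transcript length. With NT siRNA and DMSO, DDR1, the collagen-binding discoidin receptor, was at 219 ± 15.0 TPM (SD, n = 3), and EPHB4, a receptor for ephrin-B2, followed at 72.8 ± 7.83 TPM. The next 8 genes lay close together, from RYK, a receptor that binds Wnt ligands, at 35.8 TPM to LMTK2, a membrane-anchored kinase, at 23.4 TPM. They were, in order, RYK, EPHB3, FGFR2, FGFR4, MET, TYRO3, EPHA2 and LMTK2, and the ranges of neighbors in this order overlapped throughout. EPHB6, MST1R, EPHA1, FGFR3 and FGFR1 lay between 20.8 and 10.8 TPM, which brought the genes above 10 TPM to 15. PTK7, CSF1R, IGF1R, INSR, EPHA4 and STYK1 were between 5.75 and 2.03 TPM, and the other tested genes did not exceed a mean of 0.627 TPM.

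The remaining 20 receptors were not detectable or nearly so at this depth. ROR2 and EPHA5 had 0 counts in all 12 libraries, and 10 others (AXL, PDGFRA, FLT3, NTRK2, NTRK3, ROS1, TEK, TIE1, EPHA3 and EPHA10) did not exceed 2 counts in any library, below the 3 counts that a library with none allows. A further 8 (PDGFRB, FLT1, FLT4, ALK, ROR1, MUSK, EPHA7 and EPHB1) reached between 3 and 9 counts. AXL, the TAM receptor often followed in drug resistance, had at most 2 counts.

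**Figure D1:**
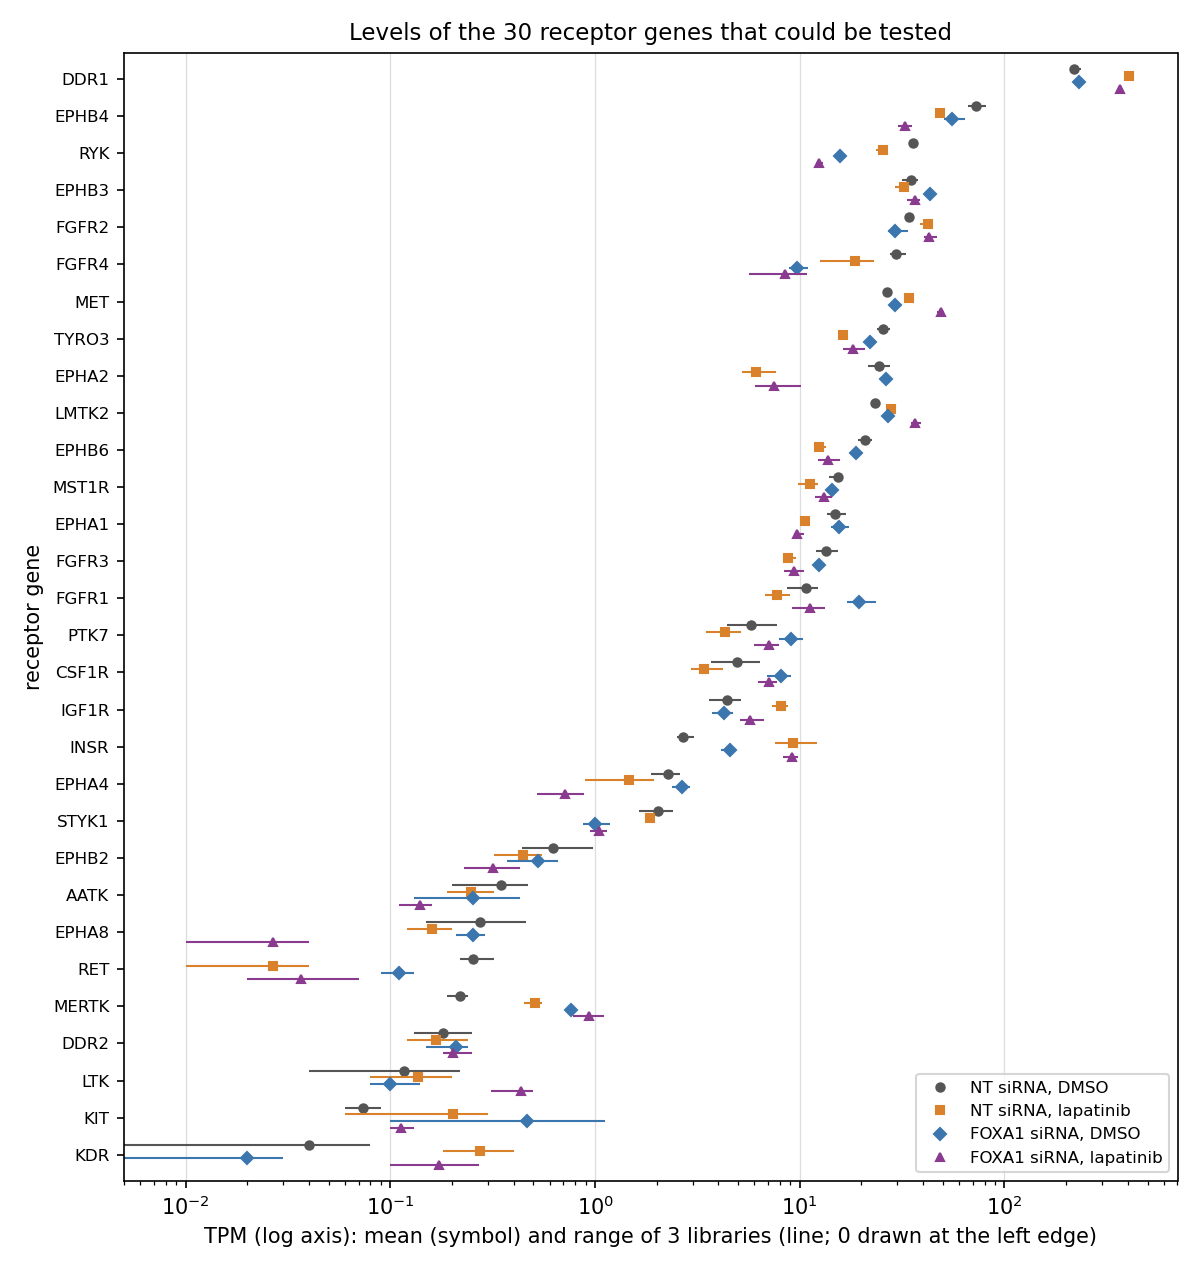
TPM of the 30 tested receptor genes on a log axis, with a symbol for the mean and a line for the range of the 3 libraries of each group, ordered by the level with NT siRNA and DMSO. DDR1 stands above all others in every group, at a mean of 408 TPM with NT siRNA and lapatinib, while KDR, LTK, RET and EPHA8 lie below 1 TPM.

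Summed over the 50 genes, the family held 627 ± 29.3 TPM with NT siRNA and DMSO and 741 ± 5.35 TPM with NT siRNA and lapatinib. The sums after FOXA1 siRNA were 603 ± 19.7 TPM in DMSO and 703 ± 4.34 TPM in lapatinib (SD, n = 3 each). DDR1 made up 35.0% ± 1.10 of the sum with NT siRNA and DMSO and 55.0% ± 0.360 with lapatinib. With FOXA1 siRNA its share was 38.4% ± 0.484 in DMSO and 52.4% ± 1.09 in lapatinib. The DDR1 share was thus higher in each lapatinib library than in any DMSO library. In RNA from whole cultures, fewer cells that express a gene and less of its RNA per cell cannot be told apart.

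The comparison of lapatinib with DMSO under NT siRNA asks how these receptors respond to HER2 inhibition while FOXA1 is present. INSR, the insulin receptor, rose most among receptors with a mean of at least 100 normalized counts, by 3.78-fold, and DDR1, IGF1R, MET, FGFR2 and LMTK2 rose by less. EPHA2, an ephrin-A receptor, fell most among them, and EPHA4, EPHA1, EPHB4, EPHB6, FGFR3, FGFR4, TYRO3, MST1R and RYK fell as well. Of the 30 tested receptors 8 rose (26.7%) and 11 fell (36.7%) at an adjusted p under 0.05 by edgeR's quasi-likelihood test, against 29.9% and 28.6% of all genes tested. With a further minimum of 1 log2 unit in either direction, the fold minimum used throughout, 5 were called (16.7%) against 13.7% of all genes. Only INSR and EPHA2 of these 5 had a mean of at least 100 normalized counts. The median log2 fold change was -0.17 over the receptors and 0.03 over all genes tested. The share that rose was near that of all genes and the share that fell was somewhat above it, a difference that was not tested. With the replicate number as a block, CSF1R and PTK7 were called lower too, and without the replicate 2 libraries 8 rose and 12 fell, with CSF1R added.

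INSR (chromosome 19, 7112265 to 7294414 in GRCh38.p14) was at 352, 416 and 336 normalized counts with NT siRNA and DMSO and at 1208, 1767 and 1135 with lapatinib. All lapatinib libraries lay above all DMSO libraries, and the replicate 2 lapatinib library was the highest. The log2 fold change was 1.92 ± 0.18 (SE; edgeR adjusted p = 3.67e-05), and 1.69 without that library. IGF1R, which binds IGF1 and IGF2, rose from a mean of 753 ± 99.0 to 1395 ± 68.8 normalized counts (log2 fold change 0.91 ± 0.10, edgeR adjusted p = 8.16e-05).

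DDR1 (chromosome 6, 30880970 to 30900156) was at 11858, 12964 and 11406 normalized counts in DMSO and 22276, 22808 and 23489 in lapatinib with NT siRNA. The lapatinib libraries were close to each other and far above the DMSO libraries, with a log2 fold change of 0.94 ± 0.06 (edgeR adjusted p = 7.17e-06). MET, the receptor of hepatocyte growth factor (chromosome 7, 116672196 to 116798377), was at 2195, 2029.8 and 2243 in DMSO and 2919, 2859 and 2955 in lapatinib. It rose by a smaller step without overlap, with a log2 fold change of 0.46 ± 0.05 (edgeR adjusted p = 0.000144). FGFR2 rose by 0.35 ± 0.12 (edgeR adjusted p = 0.0287), a call that was lost without replicate 2 of NT siRNA with DMSO (0.21), without replicate 3 of that group (0.35) and without replicate 1 (0.27) or 3 (0.36) of NT siRNA with lapatinib.

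EPHA2 (chromosome 1, 16124337 to 16156069) was at 1394, 1689 and 1526 normalized counts in DMSO and 333, 480.1 and 341 in lapatinib with NT siRNA. The groups lay far apart, and EPHA2 fell by 1.97 ± 0.15 on the log2 scale (edgeR adjusted p = 1.28e-05). Its gene overlaps the antisense gene EPHA2-AS1, as MET overlaps COMETT, EPHA1 its antisense gene EPHA1-AS1, IGF1R the RNA gene IRAIN and EPHB4 SLC12A9. No source gives whether the counting used strand, so reads of such partners cannot be told apart. EPHA4, another ephrin receptor (chromosome 2, 221418027 to 221574202), was at 245, 188 and 251 in DMSO and 175, 88.5 and 144 in lapatinib. These groups came close without overlapping, and EPHA4 fell by 0.73 ± 0.24 (edgeR adjusted p = 0.0257), which was no longer called without replicate 1 (-0.68) or 3 (-0.68) of NT siRNA with DMSO or replicate 3 of NT siRNA with lapatinib (-0.78). EPHB4, EPHB6 and EPHA1 fell by 0.55 ± 0.07, 0.63 ± 0.08 and 0.45 ± 0.10 on the log2 scale.

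FGFR4 (chromosome 5, 177086915 to 177098144) was at 1304, 1236 and 1524 normalized counts in DMSO and 927, 559.6 and 1084 in lapatinib with NT siRNA. The replicate 2 lapatinib library was the lowest, and the log2 fold change was -0.64 ± 0.21 (edgeR adjusted p = 0.0282). Without that library it was -0.40, and the call was lost without replicate 1 (-0.67) or 3 (-0.57) of NT siRNA with DMSO and without replicate 1 of NT siRNA with lapatinib (-0.70). FGFR3 and TYRO3, a TAM receptor, fell by 0.64 ± 0.09 and 0.60 ± 0.07, and RYK fell by 0.45 ± 0.06 on the log2 scale. MST1R, the receptor of macrophage-stimulating protein, fell by 0.30 ± 0.08, a call lost without replicate 1 of NT siRNA with lapatinib (-0.25).

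The promoters of the receptors with the largest change in each direction, INSR and EPHA2, are shown with that of the most abundant receptor, DDR1, to let their sequence be compared. Each line gives the 250 bases before the start of a RefSeq transcript (GRCh38.p14), 5′ to 3′ on the strand of the gene, with capitals for a match to the AP-1 motif TGACTCA or to the forkhead motif GTAAACA, the variant spelled GTCAACA or the variant spelled GCAAACA, on either strand. INSR (chr19:7294415-7294664, minus strand) and EPHA2 (chr1:16156070-16156319, minus strand) hold none of them. Of the DDR1 windows, that of a start inside the gene (chr6:30888438-30888687, plus strand) was chosen because it holds TGACTCA, 50 bases before the start, as do 4.95% of all 35116 windows of 300 bases that were searched.
INSR: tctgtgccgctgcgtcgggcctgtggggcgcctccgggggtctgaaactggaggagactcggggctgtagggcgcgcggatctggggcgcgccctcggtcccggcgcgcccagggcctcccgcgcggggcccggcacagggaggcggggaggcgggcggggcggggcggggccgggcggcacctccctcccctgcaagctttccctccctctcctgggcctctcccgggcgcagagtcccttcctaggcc
EPHA2: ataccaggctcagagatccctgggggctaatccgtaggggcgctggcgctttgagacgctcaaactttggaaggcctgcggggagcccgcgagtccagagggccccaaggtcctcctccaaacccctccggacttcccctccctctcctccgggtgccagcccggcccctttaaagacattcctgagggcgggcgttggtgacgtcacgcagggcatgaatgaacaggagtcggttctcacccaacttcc
DDR1: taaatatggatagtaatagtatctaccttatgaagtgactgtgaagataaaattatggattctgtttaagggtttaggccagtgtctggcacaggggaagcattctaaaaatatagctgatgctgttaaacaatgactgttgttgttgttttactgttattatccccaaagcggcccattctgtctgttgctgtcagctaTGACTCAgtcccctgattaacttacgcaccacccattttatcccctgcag
The INSR stretch is 78.4% G or C with 28 CpG pairs and the EPHA2 stretch 63.2% with 15, against a median of 58% over all promoters. The DDR1 stretch, picked for its motif, is 40% with 2 CpG pairs. The other DDR1 windows are not shown, so this value does not describe the DDR1 promoters as a whole. Which start is used in SKBR-3 was not tested. A match of letters describes the sequence and shows no binding.

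Under FOXA1 siRNA, lapatinib was again compared with DMSO, which asks how the receptors respond when FOXA1 is depleted. INSR, DDR1, IGF1R, MET, FGFR2 and LMTK2 rose again. All 8 tested ephrin receptors were called lower, EPHA4 and EPHA2 with the largest falls among those with a mean of at least 100 normalized counts. The 8 include EPHA8, which passed the count filter only through the groups in which it is high. They also include EPHB2 and EPHB3, whose calls were lost in some fits that left out a library. The other ephrin receptors of the list had too few counts for a test. Of the 30 tested receptors 8 rose (26.7%) and 12 fell (40%), against 28.5% and 28.7% of all genes tested. With the fold minimum 7 were called (23.3%) against 10.1% of all genes, and the median log2 fold change was -0.23 over the receptors and 0.01 over all genes. Only INSR, EPHA2 and EPHA4 of these 7 had a mean of at least 100 normalized counts. Among the rest are genes that entered the tests only through the groups in which they are high, so the share past the fold minimum is no result about the family. Without the replicate 2 libraries 8 rose and 10 fell, 5 of them past the fold minimum, and EPHB2 and RET were no longer called. As a block, the replicate number added TYRO3, CSF1R and PTK7 to those that fell.

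INSR was at 712, 596 and 659 normalized counts with FOXA1 siRNA and DMSO and at 1408, 1431 and 1236 with lapatinib. The groups did not overlap, and the log2 fold change was 1.06 ± 0.09 (edgeR adjusted p = 2.6e-05). DDR1 was at 12969, 13096 and 12504 in DMSO and 20395, 20447 and 20914 in lapatinib, a log2 fold change of 0.69 ± 0.04 (edgeR adjusted p = 4.19e-06). The spread within each group was small beside the gap between the groups.

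With FOXA1 siRNA, MET was at 2402, 2327 and 2386 normalized counts in DMSO and rose to 4217, 3956 and 4135 in lapatinib, above the MET values of every other group. The log2 fold change was 0.80 ± 0.04 (edgeR adjusted p = 5.06e-06). EPHA2 was at 1585, 1704 and 1684 in DMSO and 383, 640.1 and 402 in lapatinib, and it fell by 1.79 ± 0.17 (edgeR adjusted p = 5.52e-05), with replicate 2 the highest lapatinib library.

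With FOXA1 siRNA, EPHA4 was at 264, 240.1 and 293 normalized counts in DMSO and at 75.4, 50.9 and 89.0 in lapatinib. Its lapatinib libraries lay far below its DMSO libraries, and it fell by 1.88 ± 0.19 on the log2 scale (edgeR adjusted p = 7.49e-05). FGFR3 and EPHB3 fell by 0.38 ± 0.12 and 0.21 ± 0.07. The FGFR3 call was lost without replicate 3 of FOXA1 siRNA with DMSO (-0.37), and that of EPHB3 without replicate 1 (-0.17) or 3 (-0.19) of that group or replicate 2 of FOXA1 siRNA with lapatinib (-0.15). FGFR1 fell by 0.75 ± 0.12 (edgeR adjusted p = 0.00076), whereas with NT siRNA its log2 fold change was -0.25 ± 0.13 (edgeR adjusted p = 0.125). FGFR4 had a log2 fold change of -0.15 ± 0.21 (edgeR adjusted p = 0.577), from 405, 425 and 508 in DMSO to 415, 267 and 520.0 in lapatinib, groups that overlapped.

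**Figure D2:**
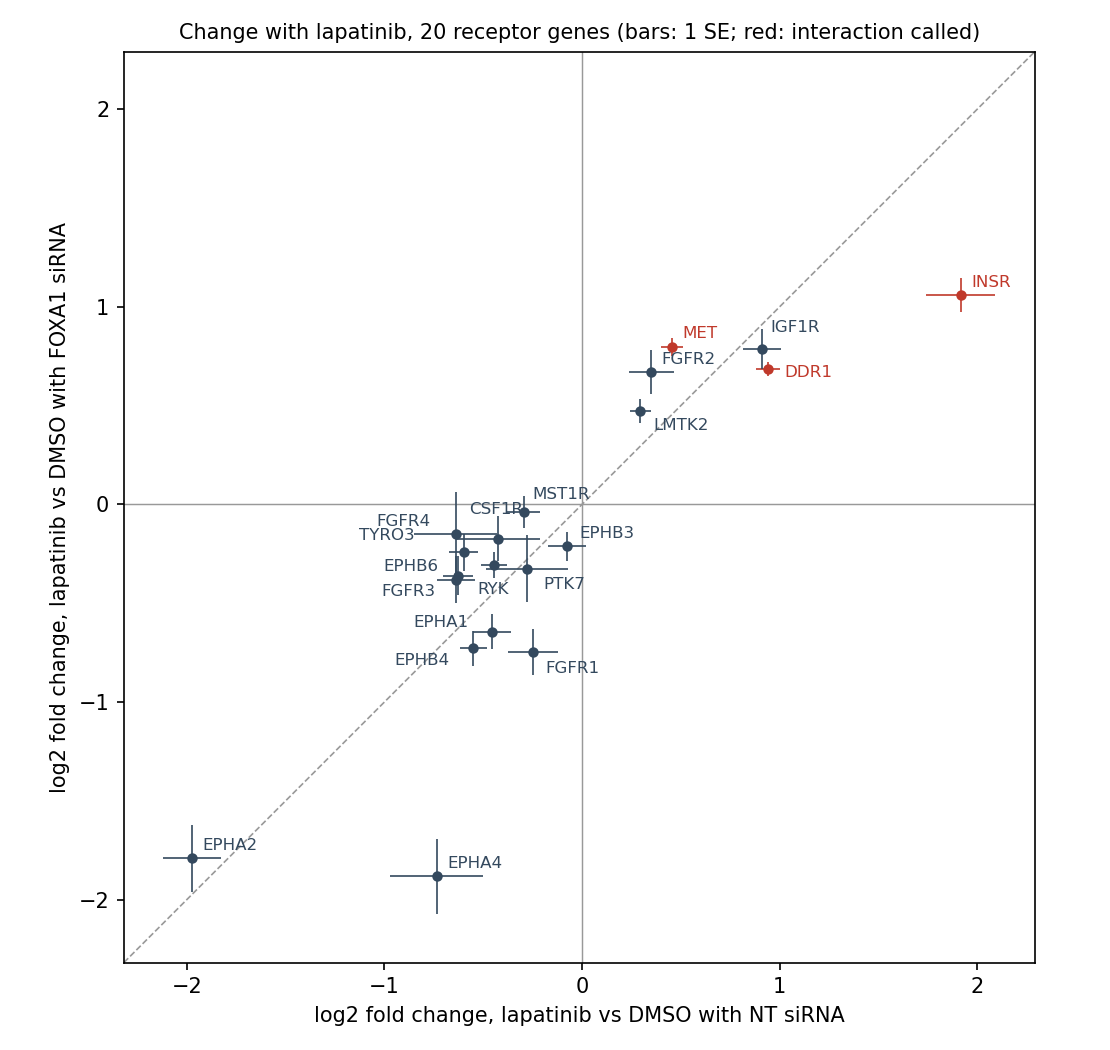
Log2 fold change with lapatinib against DMSO under NT siRNA (x axis) and under FOXA1 siRNA (y axis) for the 20 receptors with a mean of at least 100 normalized counts, with bars of 1 SE and red for genes called in the interaction. The 20 points have the same sign on both axes, INSR lies below the dashed line of equal change and MET above it.

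The lapatinib responses under the 2 siRNAs come from different libraries and had the same sign for 20 of the 20 receptors with a mean of at least 100 normalized counts (Spearman's rho 0.78 across these genes, which are not independent replicates). The difference between the responses was tested as an interaction over all 12 libraries, where a positive value means a larger log2 response with FOXA1 siRNA. MET was higher and INSR and DDR1 were lower in this contrast, 1 (3.33%) and 2 (6.67%) of the 30 tested receptors, against 3.99% and 3.2% of all genes. With the replicate number as a block 10 receptors were called, 4 higher and 6 lower, and without the replicate 2 libraries 6, of which 1 was higher and 5 were lower. Shares of all genes are not given for these alternative fits, so whether the larger numbers are particular to the receptors was not tested.

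MET responded more to lapatinib with FOXA1 siRNA, by 0.36 ± 0.07 on the log2 scale (edgeR adjusted p = 0.00782), and was called without each of the 12 libraries in turn. INSR responded less, by a log2 difference of -0.85 ± 0.21 (edgeR adjusted p = 0.0334), and its level in DMSO was 1.79-fold higher with FOXA1 siRNA than with NT siRNA. Without the high replicate 2 library of NT siRNA with lapatinib the difference was -0.62 (edgeR adjusted p = 0.0193). The INSR call was lost, at adjusted p of 0.0639 to 0.0857, without replicate 1 or 3 of either DMSO group or of FOXA1 siRNA with lapatinib. DDR1 responded less by a log2 difference of -0.24 ± 0.07 (edgeR adjusted p = 0.0453). This call was kept without replicate 2 of NT siRNA in DMSO or in lapatinib and lost, at adjusted p of 0.0632 to 0.11, without each of the other libraries.

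EPHA4 had a difference of -1.13 ± 0.33 (edgeR adjusted p = 0.0632), which was called with the replicate block (adjusted p = 0.00197) and without the replicate 2 libraries (-1.11, adjusted p = 0.00335). The other receptors called with the block were FGFR1 (-0.49, adjusted p = 0.0108), MERTK (-0.93, adjusted p = 0.0429), FGFR2 (0.34, adjusted p = 0.0118), TYRO3 (0.36, adjusted p = 0.0111), MST1R (0.27, adjusted p = 0.0262) and EPHA8, a gene of few counts that is described below with no test. These values are log2 differences in the blocked fit of edgeR. Of them FGFR1 was also called without the replicate 2 libraries, at -0.62 (adjusted p = 0.00292). EPHA8 is counted among the calls of both fits, but it passed the count filter only through the groups in which it is high. Its calls are therefore no result.

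**Figure D3:**
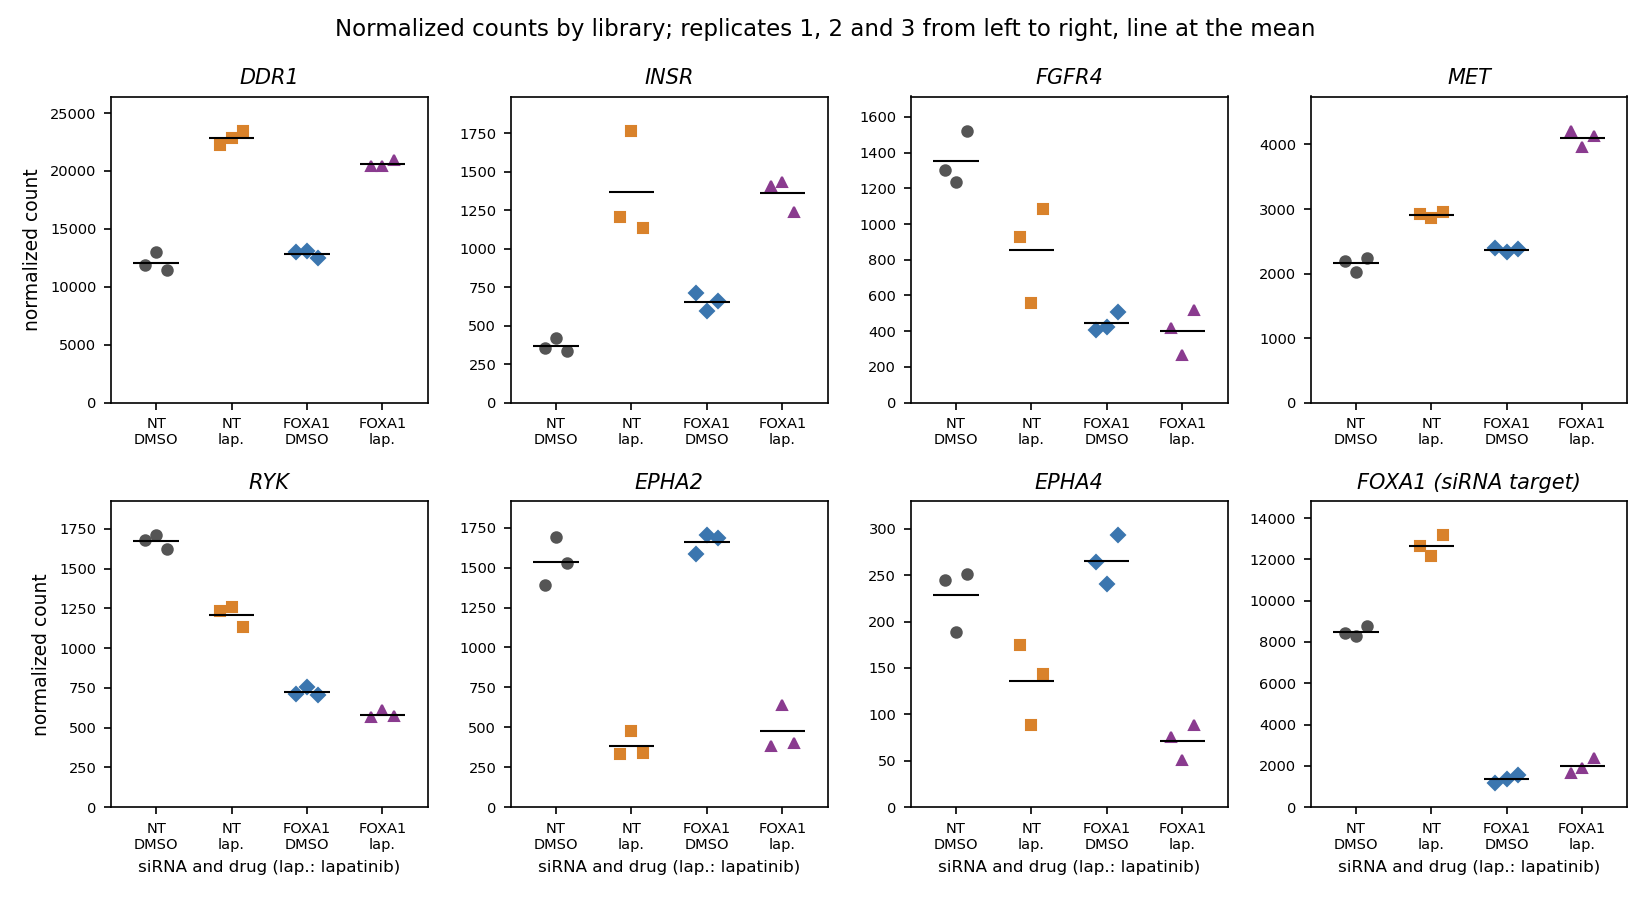
Normalized counts (y axis from 0) of DDR1, INSR, FGFR4, MET, RYK, EPHA2, EPHA4 and the siRNA target FOXA1 in each library, with replicates 1 to 3 from left to right in each group and a line at the mean. INSR in replicate 2 of NT siRNA with lapatinib, at 1767, and FGFR4 in the same library, at 559.6, lie apart from the other libraries of that group.

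FOXA1 siRNA was compared with NT siRNA in DMSO, to ask which receptor levels differ once FOXA1 is depleted in cells without the drug. FGFR4 and RYK fell most among receptors with a mean of at least 100 normalized counts, and IGF1R and EPHB4 fell by less. INSR, FGFR1, PTK7 and CSF1R rose by 1.66- to 1.79-fold, and MET, EPHB3 and LMTK2 rose by less. Of the 30 tested receptors 9 rose (30%) and 6 fell (20%), against 21% and 21% of all genes tested. With the fold minimum 6 were called (20%) against 6.79% of all genes, and the median log2 fold change was -0.08 over the receptors and -0.01 over all genes. Only FGFR4 and RYK of these 6 had a mean of at least 100 normalized counts, and some of the rest passed the count filter only through the groups in which they are high. With the replicate number as a block 12 rose and 8 fell, with DDR1, EPHA2 and EPHA4 added to the first and FGFR2 and TYRO3 to the second. Without the replicate 2 libraries 10 rose and 8 fell, with DDR1, EPHA2, FGFR2 and TYRO3 added and KIT lost.

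FGFR4, the FGF receptor that binds FGF19 with a Klotho partner, was at 1304, 1236 and 1524 normalized counts with NT siRNA and at 405, 425 and 508 with FOXA1 siRNA. Every FOXA1 siRNA library lay below every NT library, and FGFR4 fell by 1.59 ± 0.11 on the log2 scale (edgeR adjusted p = 3.25e-05). RYK (chromosome 3, 134157133 to 134250859) was at 1683, 1711 and 1621 with NT siRNA and 713, 756 and 704 with FOXA1 siRNA, with little spread in either group. It fell by 1.20 ± 0.06 (edgeR adjusted p = 7.86e-06). STYK1, a kinase-like receptor with few counts, fell by 1.02 ± 0.21 from 97.0 ± 19.5 to 47.4 ± 7.88 normalized counts (edgeR adjusted p = 0.00518).

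The first 250 bases of promoter of these receptors, RYK (chr3:134250860-134251109, minus strand) and FGFR4 (chr5:177086665-177086914, plus strand), are shown because they fell most with FOXA1 siRNA, with the same motifs in capitals.
RYK: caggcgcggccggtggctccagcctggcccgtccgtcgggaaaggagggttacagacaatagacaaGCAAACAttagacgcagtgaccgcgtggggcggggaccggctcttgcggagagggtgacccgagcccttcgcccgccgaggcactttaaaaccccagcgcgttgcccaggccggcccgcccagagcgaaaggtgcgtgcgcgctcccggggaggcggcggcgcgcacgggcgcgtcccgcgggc
FGFR4: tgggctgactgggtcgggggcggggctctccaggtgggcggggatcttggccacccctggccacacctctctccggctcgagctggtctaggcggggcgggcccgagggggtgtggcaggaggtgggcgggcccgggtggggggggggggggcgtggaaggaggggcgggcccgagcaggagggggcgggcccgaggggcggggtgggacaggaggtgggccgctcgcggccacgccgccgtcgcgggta
RYK holds GCAAACA, 184 bases before its start, and FGFR4 holds none of the 3 forkhead motifs. At least 1 of these motifs was in 9.24% of all windows, in 8 of the 76 windows of the 46 receptors with an entry (10.5%) and in 3 of the 48 windows of tested receptors (6.25%), which belong to RYK and FGFR2. The other receptors with a match, AXL, EPHA7, NTRK2, ROS1 and TEK, were all below 10 counts. The share of windows with a match was near that of all promoters, and distant elements were not searched.

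IGF1R had 753 ± 99.0 normalized counts with NT siRNA and 529.9 ± 56.7 with FOXA1 siRNA, and it fell by 0.50 ± 0.12 (edgeR adjusted p = 0.00971). In TPM it was 4.42 ± 0.78 and 4.26 ± 0.51, values whose ranges overlap, and the difference in TPM was not tested. EPHB4 fell by 0.39 ± 0.10 (edgeR adjusted p = 0.0136), a call lost without replicate 1 (-0.35) or 3 (-0.32) of FOXA1 siRNA with DMSO.

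INSR rose with FOXA1 siRNA in DMSO by 0.84 ± 0.11 (edgeR adjusted p = 0.00056), from the 336 to 416 normalized counts given above to 596 to 712. FGFR1 rose by 0.84 ± 0.14 (edgeR adjusted p = 0.00232), from 487 ± 83.5 to 866 ± 119 normalized counts. PTK7, a Wnt co-receptor without kinase activity, rose by 0.77 ± 0.17 (edgeR adjusted p = 0.00832). CSF1R, the receptor of the macrophage growth factor CSF1, rose by 0.73 ± 0.19 (edgeR adjusted p = 0.0146), a call lost without replicate 1 of NT siRNA with DMSO (0.71, adjusted p = 0.0511). Beside CSF1R, the leukocyte marker PTPRC was at most at 0.32 TPM and CD14 at most at 0.83 TPM in any library, while CD68 was at a mean of 18.1 TPM with NT siRNA and 24.3 TPM with FOXA1 siRNA in DMSO.

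MET rose by 0.15 ± 0.05 (edgeR adjusted p = 0.0466), and this call was lost without each of the 6 libraries in turn, with log2 fold changes of 0.11 to 0.18. EPHB3 rose by 0.30 ± 0.08, a call lost without replicate 1 (0.27) or 3 (0.29) of FOXA1 siRNA with DMSO. LMTK2 rose by 0.20 ± 0.05, a call lost without replicate 1 of NT siRNA (0.18) or of FOXA1 siRNA (0.17).

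The same siRNA comparison under lapatinib asks the same in cells treated with the inhibitor. RYK and FGFR4 fell most again among receptors with a mean of at least 100 normalized counts, EPHA4, IGF1R, EPHB4 and DDR1 fell by less, and CSF1R, PTK7, MET, LMTK2 and FGFR1 rose. Of the 30 tested receptors 7 rose (23.3%) and 9 fell (30%), against 22.2% and 21.8% of all genes tested. With the fold minimum 5 were called (16.7%) against 8.38% of all genes, and the median log2 fold change was 0.06 over the receptors and -0.01 over all genes. Of these 5 only RYK and FGFR4 had a mean of at least 100 normalized counts, and the rest include genes that passed the count filter only through the groups in which they are high. With the replicate number as a block 11 rose, with EPHA2 (0.29, adjusted p = 0.00442), EPHB3 (0.17, adjusted p = 0.00187), EPHB6 (0.19, adjusted p = 0.014) and MST1R (0.16, adjusted p = 0.0229) added. Without the replicate 2 libraries 9 rose and 9 fell, with EPHB3, EPHB6 and EPHA1 added and AATK lost.

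RYK was at 1236, 1257 and 1134 normalized counts with NT siRNA and 569, 608 and 571 with FOXA1 siRNA under lapatinib. The groups were well apart, and RYK fell by 1.06 ± 0.07 (edgeR adjusted p = 1.5e-05). FGFR4 was at 927, 559.6 and 1084 with NT siRNA and 415, 267 and 520.0 with FOXA1 siRNA. The lowest NT library, replicate 2, was close to the highest FOXA1 siRNA library, and FGFR4 fell by 1.11 ± 0.28 (edgeR adjusted p = 0.0139), a call lost without replicate 3 of NT siRNA with lapatinib (-0.90, adjusted p = 0.0522).

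EPHA4 fell by 0.92 ± 0.29 (edgeR adjusted p = 0.0312) from the 88.5 to 175 normalized counts of NT siRNA to 50.9 to 89.0, groups that just overlapped. Its call was lost without replicate 1 (-0.70) or 3 (-0.88) of NT siRNA with lapatinib and without replicate 1 (-0.96) or 2 (-0.72) of FOXA1 siRNA with lapatinib. DDR1 fell by 0.16 ± 0.04 (edgeR adjusted p = 0.012), a call at the threshold without replicate 3 of NT siRNA with lapatinib (-0.14, adjusted p = 0.0501). IGF1R fell by 0.62 ± 0.08 (edgeR adjusted p = 0.000481) and EPHB4 by 0.57 ± 0.06 (edgeR adjusted p = 0.000151).

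INSR had a log2 fold change of -0.02 ± 0.16 with FOXA1 siRNA under lapatinib (edgeR adjusted p = 0.927), and its libraries overlapped, in contrast to its rise in DMSO. Without replicate 2 of NT siRNA with lapatinib the value was 0.20 (adjusted p = 0.0735). MET rose by 0.49 ± 0.05 (edgeR adjusted p = 9.73e-05). CSF1R rose by 0.98 ± 0.15 (edgeR adjusted p = 0.00108), with CD68 at 32.4 TPM with NT siRNA and 37.1 TPM with FOXA1 siRNA. PTK7 rose by 0.72 ± 0.21 (edgeR adjusted p = 0.021), a call lost without replicate 1 (0.75) or 3 (0.55) of NT siRNA and 1 (0.68) or 2 (0.60) of FOXA1 siRNA with lapatinib. FGFR1 rose by 0.34 ± 0.10 (edgeR adjusted p = 0.0222), and its call was lost without the same libraries (0.33, 0.35, 0.35 and 0.25 in the same order).

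**Figure D4:**
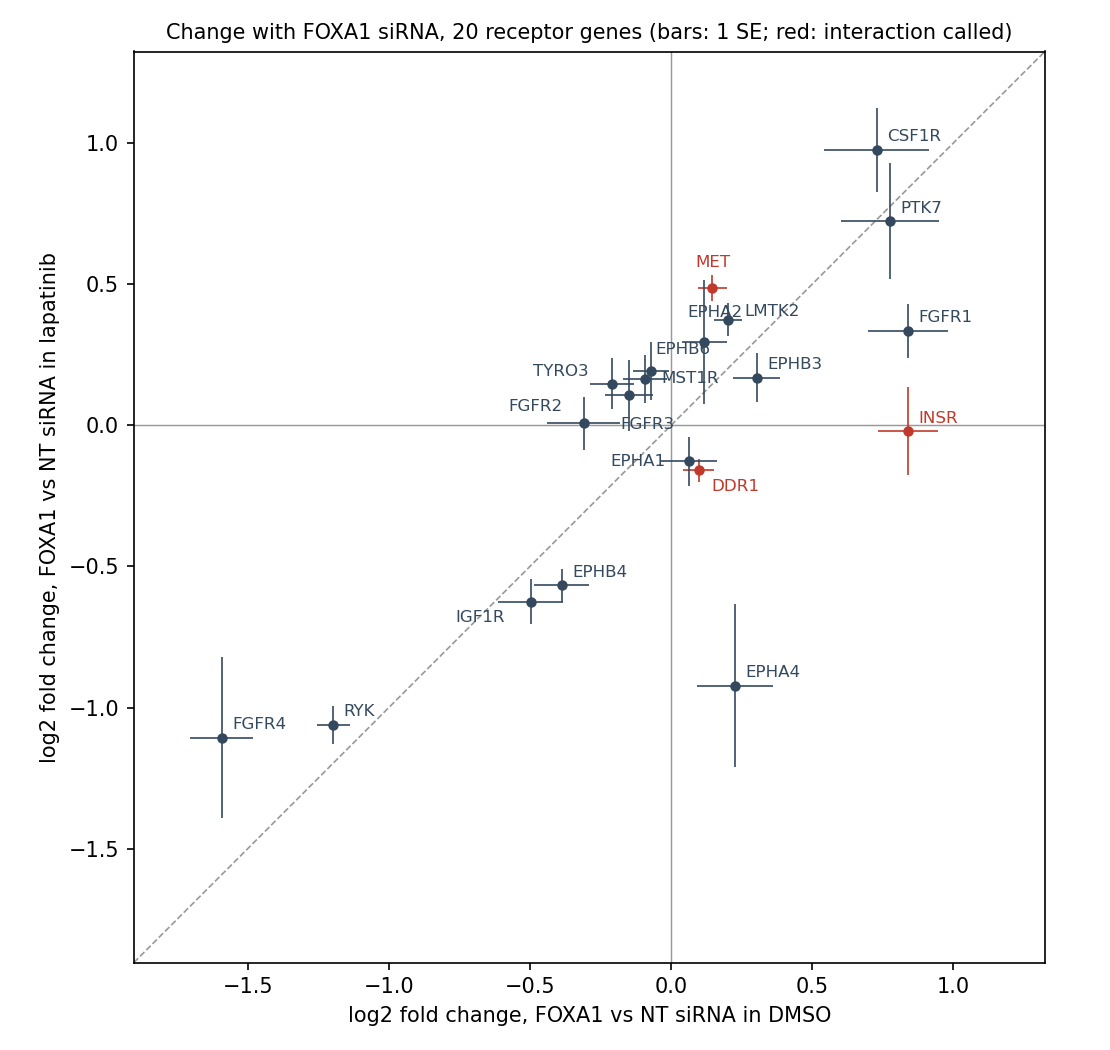
Log2 fold change with FOXA1 siRNA against NT siRNA in DMSO (x axis) and in lapatinib (y axis) for the 20 receptors with a mean of at least 100 normalized counts, with bars of 1 SE and red for genes called in the interaction. RYK and FGFR4 lie at the lower left, CSF1R and PTK7 at the upper right, and INSR and EPHA4 lie below the dashed line of equal change.

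The FOXA1 siRNA responses in DMSO and in lapatinib also come from different libraries, and 11 of the 20 receptors with a mean of at least 100 normalized counts had the same sign in both (Spearman's rho 0.63 across genes). Of those with opposite signs, INSR was called in DMSO, DDR1 and EPHA4 were called in lapatinib, and FGFR2, FGFR3, MST1R, TYRO3, EPHA1 and EPHB6 were called in neither. DDR1 was at 0.10 in DMSO and -0.16 in lapatinib, and EPHA4 at 0.23 and -0.92.

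The other 10 tested receptors had means under 100 normalized counts, so their fold changes rest on few reads. KDR, LTK, RET and KIT reached 10 counts in at most 2 groups, and EPHA8 and AATK in 3. These 6 so entered the tests only through the groups in which they are high. Their calls are part of the numbers above, but their levels are given here as a description with no test. RET, the receptor of GDNF family ligands, had 17 to 24 counts per library with NT siRNA and DMSO, 1 to 4 with NT siRNA and lapatinib, 5 to 10 with FOXA1 siRNA and DMSO and 1 to 4 with both. KDR, the main VEGF receptor of endothelium, had 0 to 6 counts with NT siRNA and DMSO, 13 to 30 with NT siRNA and lapatinib, 0 to 2 with FOXA1 siRNA and DMSO and 10 to 19 with both. Of the endothelial markers, CDH5 was at a mean of 8.88 TPM with NT siRNA and DMSO and 4.42 TPM with NT siRNA and lapatinib, 7.75 and 9.15 TPM in the FOXA1 siRNA groups, and PECAM1 did not exceed 0.27 TPM. Their part in the KDR counts was not tested.

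LTK, a relative of ALK, had 2 to 8 counts in every group but FOXA1 siRNA with lapatinib, where it had 12 to 17 counts. KIT, the receptor of stem cell factor, had 5 to 8 counts with NT siRNA and DMSO, 3 to 12 with NT siRNA and lapatinib, 9 to 19 with FOXA1 siRNA and DMSO and 9 in each library with both. EPHA8 had 7 to 17 counts in 3 groups and 1 to 3 with FOXA1 siRNA and lapatinib. MERTK, a TAM receptor of phagocytes, rose with lapatinib under NT siRNA, from 12.7 ± 1.57 to 29.9 ± 3.42 normalized counts (log2 fold change 1.25 ± 0.26, edgeR adjusted p = 0.00318). FOXA1 siRNA brought it to 44.2 ± 2.39 in DMSO (1.80 ± 0.22, adjusted p = 0.000429) and to 55.0 ± 9.57 in lapatinib (0.86 ± 0.21, adjusted p = 0.0112).

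AATK had 11 to 30 counts with NT siRNA and DMSO, 12 to 24 with NT siRNA and lapatinib, 7 to 22 with FOXA1 siRNA and DMSO and 6 to 9 with both. Its call with FOXA1 siRNA under lapatinib was lost without replicate 1 of FOXA1 siRNA with lapatinib and without the replicate 2 libraries. EPHB2 fell with lapatinib under FOXA1 siRNA (-0.74 ± 0.28, edgeR adjusted p = 0.0497), a call lost without replicate 1 (-0.60) or 2 (-0.68) of FOXA1 siRNA with DMSO, replicate 1 (-0.59) or 3 (-0.72) of FOXA1 siRNA with lapatinib, and the replicate 2 libraries (-0.90, adjusted p = 0.0513). DDR2, the second collagen receptor, had 5 to 13 counts in every group and no call.

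Ligands, their activators and co-receptors were taken from a list of 79 genes, of which 76 are in the files and 39 could be tested. Ligands of some receptors with few or no counts were abundant. KITLG, the ligand of KIT, was at 143 TPM with NT siRNA and DMSO beside KIT at 0.0733 TPM, and WNT5A, which ROR1 and ROR2 bind, was at 37.4 TPM. Other Wnt-binding receptors of the list were expressed in that group, RYK at 35.8 TPM and the co-receptor PTK7 at 5.75 TPM. For MET the case was the reverse, since HGF had 0 counts in all 12 libraries, while SPINT1 and SPINT2, inhibitors of the proteases that activate HGF, were at 562 and 609 TPM and ST14, a protease that activates it, was at 245 TPM. With lapatinib 11 of the 39 rose (28.2%) and 6 fell (15.4%) under NT siRNA, against 29.9% and 28.6% of all genes, and 9 rose (23.1%) and 8 fell (20.5%) under FOXA1 siRNA, against 28.5% and 28.7%. With FOXA1 siRNA 5 rose (12.8%) and 10 fell (25.6%) in DMSO, against 21% and 21% of all genes. In lapatinib 7 rose (17.9%) and 16 fell (41%), against 22.2% and 21.8%, and the median log2 fold change was -0.25 against -0.01 over all genes. Among the 39 are genes that passed the count filter only through the groups in which they are high. IGF1 and LRP4 reached 10 counts only with NT siRNA and lapatinib. The shares called and the median are therefore no result about the ligands. In the interaction edgeR called 0 of the 39, against 3.99% of all genes higher and 3.2% lower. DESeq2 called 2, with 9 at an unadjusted p under 0.05 by either tool, and 10 were called by edgeR with the replicate block. Shares of all genes are not given for these other numbers. In the order of the comparisons above, the block raised the ligands called from 17 to 18, 17 to 22, 15 to 20 and 23 to 26.

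Among ligands, EFNB2, the ephrin bound by EPHB4, moved with both treatments. It was at 180.3, 119 and 226 normalized counts with NT siRNA and DMSO and 63.0, 74.5 and 60.5 with NT siRNA and lapatinib, a fall of 1.38 ± 0.24 (edgeR adjusted p = 0.00122). With FOXA1 siRNA it was at 387, 299 and 404 in DMSO and 331, 210.5 and 249.7 in lapatinib, above the NT libraries of the same drug. With lapatinib under FOXA1 siRNA its log2 fold change was -0.46 ± 0.18 (edgeR adjusted p = 0.0581, and 0.00297 with the replicate block). The log2 fold change with FOXA1 siRNA was 1.06 ± 0.22 in DMSO (edgeR adjusted p = 0.00574) and 1.98 ± 0.19 in lapatinib (adjusted p = 0.000113). EFNA1, a ligand of EPHA2, rose with lapatinib under FOXA1 siRNA by 1.07 ± 0.10 (edgeR adjusted p = 5e-05), and SPINT1 rose with lapatinib under NT siRNA by 1.16 ± 0.07 (adjusted p = 4.61e-06). Each was also higher with lapatinib under the other siRNA, without overlap. EFNA1 went from a mean of 2626 to 4244 normalized counts under NT siRNA, and SPINT1 from 16889 to 31345 under FOXA1 siRNA. Neither was called in the interaction by the main fit, and both were with the replicate block.

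PDGFB was at 2999, 3673 and 2919 normalized counts with NT siRNA and 908, 1193 and 909.9 with FOXA1 siRNA in DMSO. It fell by 1.66 ± 0.13 in DMSO (edgeR adjusted p = 6.18e-05) and by 1.33 ± 0.16 in lapatinib (adjusted p = 0.000292). Its receptors PDGFRA and PDGFRB did not exceed 1 and 7 counts in any library. VEGFC, the lymphatic growth factor, fell with FOXA1 siRNA by 1.09 ± 0.19 in DMSO (edgeR adjusted p = 0.00243) and by 1.70 ± 0.14 in lapatinib (adjusted p = 4.78e-05), while its receptor FLT4 did not exceed 4 counts.

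Docking proteins, phosphatases and ubiquitin ligases that act on these receptors form a list of 43 genes, of which 37 could be tested. With lapatinib 17 rose (45.9%) and 11 fell (29.7%) under NT siRNA, against 29.9% and 28.6% of all genes, and 14 rose (37.8%) and 12 fell (32.4%) under FOXA1 siRNA, against 28.5% and 28.7%. With FOXA1 siRNA 8 rose (21.6%) and 8 fell (21.6%) in DMSO, against 21% and 21%, and 6 rose (16.2%) and 14 fell (37.8%) in lapatinib, against 22.2% and 21.8%. Among the 37, GRB14 with NT siRNA and lapatinib and DOK7 with FOXA1 siRNA and lapatinib did not exceed 7 counts. Both passed the count filter only through other groups. Without the replicate 2 libraries DOK1, FRS3 and IRS1 were no longer called with lapatinib under NT siRNA, nor PTPN11 with FOXA1 siRNA in lapatinib. With the replicate block the numbers that rose with FOXA1 siRNA were 13 in DMSO and 10 in lapatinib. In the interaction 0 were higher (0%) and 3 lower (8.11%), FRS2, LRIG2 and DOK4, against 3.99% and 3.2% of all genes. At an unadjusted p under 0.05 there were 11, and DESeq2 called 5, numbers given without a share of all genes. FRS2 and LRIG2 (-0.25 and -0.38) were called in 5 and 3 of the 12 fits that left out 1 library.

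GAB2, a docking protein for PI3K and SHP2, was at 209.8, 284 and 209 normalized counts with NT siRNA and DMSO and 711, 869 and 743 with lapatinib. It rose by 1.75 ± 0.14 under NT siRNA (edgeR adjusted p = 2.05e-05) and by 1.88 ± 0.10 under FOXA1 siRNA (adjusted p = 4.49e-06). SOS2, a RAS exchange factor, rose by 1.01 ± 0.05 and 1.03 ± 0.04, and PLCG1, the phospholipase recruited by FGF receptors and others, fell by 1.22 ± 0.06 and 1.05 ± 0.06. Under NT siRNA CBLB, a ubiquitin ligase, rose by 1.25 ± 0.08 and SH2B2, an adaptor of the insulin receptor, fell by 1.33 ± 0.19, with adjusted p of these calls between 2.15e-06 and 0.000447. Under FOXA1 siRNA CBLB rose by 0.98 ± 0.13 (adjusted p = 0.000278) and SH2B2 fell by 0.71 ± 0.19 (adjusted p = 0.0134), a call lost without replicate 1 of FOXA1 siRNA with lapatinib (-0.61).

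DOK4, a docking protein of the insulin receptor and RET, was at 296, 349 and 322 normalized counts with NT siRNA and lapatinib and 127, 156 and 92.1 with FOXA1 siRNA and lapatinib. It fell by 1.71 ± 0.19 with lapatinib under FOXA1 siRNA (edgeR adjusted p = 0.000107), where under NT siRNA its log2 fold change was -0.27 ± 0.13 (adjusted p = 0.116, and 0.0389 with the replicate block). The interaction was -1.42 (edgeR adjusted p = 0.00527).

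The other genes of the insulin and IGF branch are described with no test, since they were picked out after their values were seen. IRS2, a docking protein of both receptors, was at 6.90, 11.9 and 12.5 normalized counts with NT siRNA and DMSO and 162, 163 and 139.5 with lapatinib. With FOXA1 siRNA its mean was 12.2 in DMSO and 108 in lapatinib. IRS1, the related docking protein, had means of 476 and 565 normalized counts in DMSO and lapatinib with NT siRNA, and 545 and 692 after FOXA1 siRNA. The inhibitory adaptor GRB14 had 26 to 31 counts per library in DMSO and 4 to 7 in lapatinib with NT siRNA, and 17 to 32 and 5 to 10 after FOXA1 siRNA. Its relative GRB10 had means of 328 and 295 normalized counts with NT siRNA and 434 and 295 after FOXA1 siRNA. Among the ligands, IGF1 had 0 to 1 counts in both DMSO groups, 11 to 24 with NT siRNA and lapatinib and 1 to 3 with FOXA1 siRNA and lapatinib, and IGF2 had means of 8.15 to 16.1 normalized counts.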

How the data were processed

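Each of the 12 libraries was deposited as tables of expected counts and TPM and FPKM values per gene, with a further column of signal scaled by the upper quartile, all made by the authors. The study's methods name STAR, Salmon and an upper-quartile scaling on hg38, the column names are those of RSEM, and the submitters' processing notes list RSEM, R 3.2.2 and DESeq2 1.12.3. The strand setting is not given in the sources used here, and the labels name both a stranded and a TruSeq kit.

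The deposited expected counts were rounded and tested with the quasi-likelihood test of edgeR 4.0.16 in R 4.3.3 after TMM scaling. The filter asked for 10 counts or more in any library, which left 14012 genes. Each of the 4 comparisons was fitted on its own 6 libraries and the interaction on all 12, and calls needed a p below 0.05 after Benjamini-Hochberg adjustment over every gene tested (the 5% of the methods). An exact permutation test of 3 against 3 libraries cannot go below 0.1 and was not used. The SE of an edgeR log2 fold change was taken as its size over the square root of the F statistic of the test. It is therefore no measure of spread separate from the test. Normalized counts are counts over the TMM-scaled library size at the mean depth. TPM as deposited by the authors served for levels between genes. The deposited FPKM values were not used, and the deposited signal column was read only to check its scaling against the counts. Scripts were tested on simulated data. Python 3.11.15 with pandas 2.3.3 and matplotlib 3.10.9 made the tables and plots.

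Values per library are given for receptors with a mean of at least 100 normalized counts that were called and changed by 1 log2 unit or more in a comparison, or called in the interaction. From the ligand and adaptor lists up to 5 genes per list and comparison that met the same limits could be named. The receptors, the lists and these rules were chosen with earlier results of these data known. Promoter sequences and coordinates are from RefSeq (GRCh38.p14), and 46 of the 50 receptors had a window.

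Libraries with the same replicate number deviated together from their group means. The correlation over 12170 genes was 0.241 to 0.624 in the 18 pairs with the same number and averaged -0.184 in the others. The deviations of the 3 libraries of a group sum to 0, so this negative average follows from the positive correlations and is no separate evidence. The fit with the replicate number as a block is therefore given where it changes a call of a receptor. For the ligands and adaptors it is given as numbers of calls. The alternatives were RLE and upper-quartile scaling, DESeq2 1.42.0, no filter, at least 10 counts in every library, the replicate block, 1 model of all libraries, an adjusted p under 0.01 and each library left out. Leaving out replicate 2 of every group was added after seeing the data. Shares of all genes called are given for the main fit only. Numbers of calls from the alternatives therefore have no background beside them and describe only the listed genes.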

Additional observations from a re-analysis of the deposited data

Results flagged for a closer look

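The lapatinib response of 3 receptors differed between the siRNAs by the interaction test of edgeR over the 12 libraries. The log2 response with FOXA1 siRNA minus that with NT siRNA was 0.36 for MET, -0.85 for INSR and -0.24 for DDR1. Of these, the MET difference was called in 12 of 12 fits with a single library omitted, the INSR difference in 6 and the DDR1 difference in 2. Groups of 3 libraries are too small for a test of single outlying libraries.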

How the results depend on the processing

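The replicate block, which pairs the libraries by number, took away no call of the receptors, ligands or adaptors and turned no direction. With the block 11 receptors rose with FOXA1 siRNA under lapatinib, and 10 were called in the interaction, 4 higher and 6 lower. Of the ligands 10 (4 higher, 6 lower) and of the adaptors 9 (2 higher, 7 lower) were then called in the interaction, and adaptors called went from 28 to 30 and 26 to 28 with lapatinib under NT and FOXA1 siRNA and from 16 to 24 and 20 to 24 with FOXA1 siRNA in DMSO and in lapatinib, where 13 and 10 rose. Without replicate 2 of every group, chosen after seeing the data, the interaction called 6 receptors (5 lower), 6 ligands (3 higher, 3 lower) and 8 adaptors (3 higher, 5 lower). At an adjusted p under 0.01 the receptors that fell with lapatinib under FOXA1 siRNA numbered 7. With FOXA1 siRNA 9 were called in DMSO at that level (4 higher) and 8 in lapatinib (3 higher, 5 lower), and the interaction called 1, with 0 lower. The interaction called 1 receptor lower with no filter and 1 with upper-quartile scaling. Leaving out 1 library gave 1 to 5 receptors in the interaction and 0 to 4 lower, and 5 to 9 that rose with FOXA1 siRNA in DMSO. Signs turned only for values that were not called. FGFR4 with lapatinib under FOXA1 siRNA was 0.036 without replicate 2 of every group, and from -0.39 to 0.064 with 1 library left out, the highest without replicate 2 of FOXA1 siRNA with lapatinib. INSR with FOXA1 siRNA under lapatinib was 0.17 without replicate 2 of every group, 0.0026 with upper-quartile scaling, and from -0.14 to 0.20 with 1 library left out, above 0 without replicate 3 of FOXA1 siRNA with lapatinib (0.044) and without replicate 2 of NT siRNA with lapatinib (0.20). The EPHA2 interaction ranged from -0.083 without replicate 2 of FOXA1 siRNA with lapatinib to 0.39 without replicate 2 of NT siRNA with lapatinib. The causes were not tested. Over all alternatives 251 counts of calls stayed within 1.5 times the reported count and 49 did not. With 3 libraries a group and few reads, changes of receptors under 100 normalized counts are the least certain.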
